A study of Mus musculus with 2 samples.

Results

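The Hox genes were described by cluster and paralogue number in open chromatin of mouse frontal cortex. All protein-coding genes of the GENCODE M21 annotation named Hox, with a cluster letter a to d and a paralogue number, were taken, which gave 39 of the 21755 protein-coding genes on the autosomes and X. There were 11 members in HoxA, 10 in HoxB, 9 in HoxC and 9 in HoxD. The tissue was taken from B6CASTF1/J females, a first-generation cross of the B6 and CAST strains, aged 10 days, and all samples form 1 group with no treatment or control. DNase-seq, which sequences the ends left where DNase I cuts open DNA, was deposited for 2 libraries that the labels call biological replicates 1 and 2. Both carry the same donor label and the unexplained mark "3x", and whether animals were pooled is not stated.

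Hox genes encode homeodomain transcription factors that give embryonic cells their position along the body axis. The genes of a cluster lie in the order in which they are used along that axis, with low paralogue numbers acting towards the head and high ones towards the tail. They are used in the hindbrain and spinal cord and not normally in the forebrain, and Polycomb proteins keep them silent where they are not used. CTCF, a DNA-binding insulator protein, binds within the clusters and is known from embryos to help separate active from silent domains.

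The highest peak in the gene-bearing part of HoxB and HoxC lay between paralogues 9 and 8 in both replicates, and that of HoxD did so in replicate 1. HoxA has no paralogue 8, and its highest peak covered the gene start of Hoxa7. It falls between Hoxa7 and Hoxa9 when each gene is placed by its last protein-coding start, as here, and between Hoxa3 and Hoxa7 by annotated gene starts. The sequences of these 4 peaks are shown because the positional description rests on them. They are the forward strand of the reference mouse genome (GRCm38, mm10, strain C57BL/6J) and do not show the CAST allele. Capitals mark the bases under a footprint, a short stretch protected from cutting inside an open site, in both replicates.
HoxA, start of Hoxa7, chr6:52221681-52221940: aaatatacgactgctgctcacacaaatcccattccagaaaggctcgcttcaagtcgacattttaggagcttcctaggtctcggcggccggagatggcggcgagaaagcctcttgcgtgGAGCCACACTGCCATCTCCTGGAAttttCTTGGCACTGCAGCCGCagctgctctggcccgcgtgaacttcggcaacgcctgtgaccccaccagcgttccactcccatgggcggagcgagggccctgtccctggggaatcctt
HoxB, between Hoxb9 and Hoxb8, chr11:96278901-96279060: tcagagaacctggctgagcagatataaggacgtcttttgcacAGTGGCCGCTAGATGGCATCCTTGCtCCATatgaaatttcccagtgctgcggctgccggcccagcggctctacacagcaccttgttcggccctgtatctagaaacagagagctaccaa
HoxC, between Hoxc9 and Hoxc8, chr15:102987521-102987700: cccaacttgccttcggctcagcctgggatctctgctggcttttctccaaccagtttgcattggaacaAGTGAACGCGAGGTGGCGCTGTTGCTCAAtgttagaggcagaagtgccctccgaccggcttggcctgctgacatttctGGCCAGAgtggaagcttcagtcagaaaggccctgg
HoxD, between Hoxd9 and Hoxd8, chr2:74702301-74702500: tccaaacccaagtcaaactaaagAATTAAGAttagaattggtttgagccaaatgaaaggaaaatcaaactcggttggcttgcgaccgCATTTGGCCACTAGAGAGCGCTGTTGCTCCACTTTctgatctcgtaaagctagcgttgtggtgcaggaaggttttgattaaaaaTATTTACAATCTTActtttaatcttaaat

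Most Hox promoters had no peak. A promoter was counted as open if a peak of the longer deposited list overlapped the 500 bp on either side of any annotated transcript start. By this rule 7 of 39 Hox promoters were open in replicate 1 and 5 of 39 in replicate 2, beside 66.6% and 63.8% of all protein-coding genes. The same 5 were open in both, beside 63.3% of all genes, and 32 members were closed in both. In bulk tissue, a site open in few cells and a site weakly open in many cells cannot be told apart.

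By cluster, HoxA had 3 open promoters of 11 in either replicate, those of Hoxa4, Hoxa7 and Hoxa10. HoxB had 1 of 10 in both replicates, that of Hoxb5. HoxC had 3 of 9 in replicate 1 (Hoxc5, Hoxc10 and Hoxc13) and 1 of 9 in replicate 2 (Hoxc5). HoxD had 0 of 9 in both replicates. By paralogue number, 1 of 12 anterior members (1 to 4) was open in each replicate, as were 3 of 11 central members (5 to 8). Of 16 posterior members (9 to 13), 3 were open in replicate 1 and 1 in replicate 2. The open members belonged to paralogue groups 4, 5, 7, 10 and 13.

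**Figure D1:**
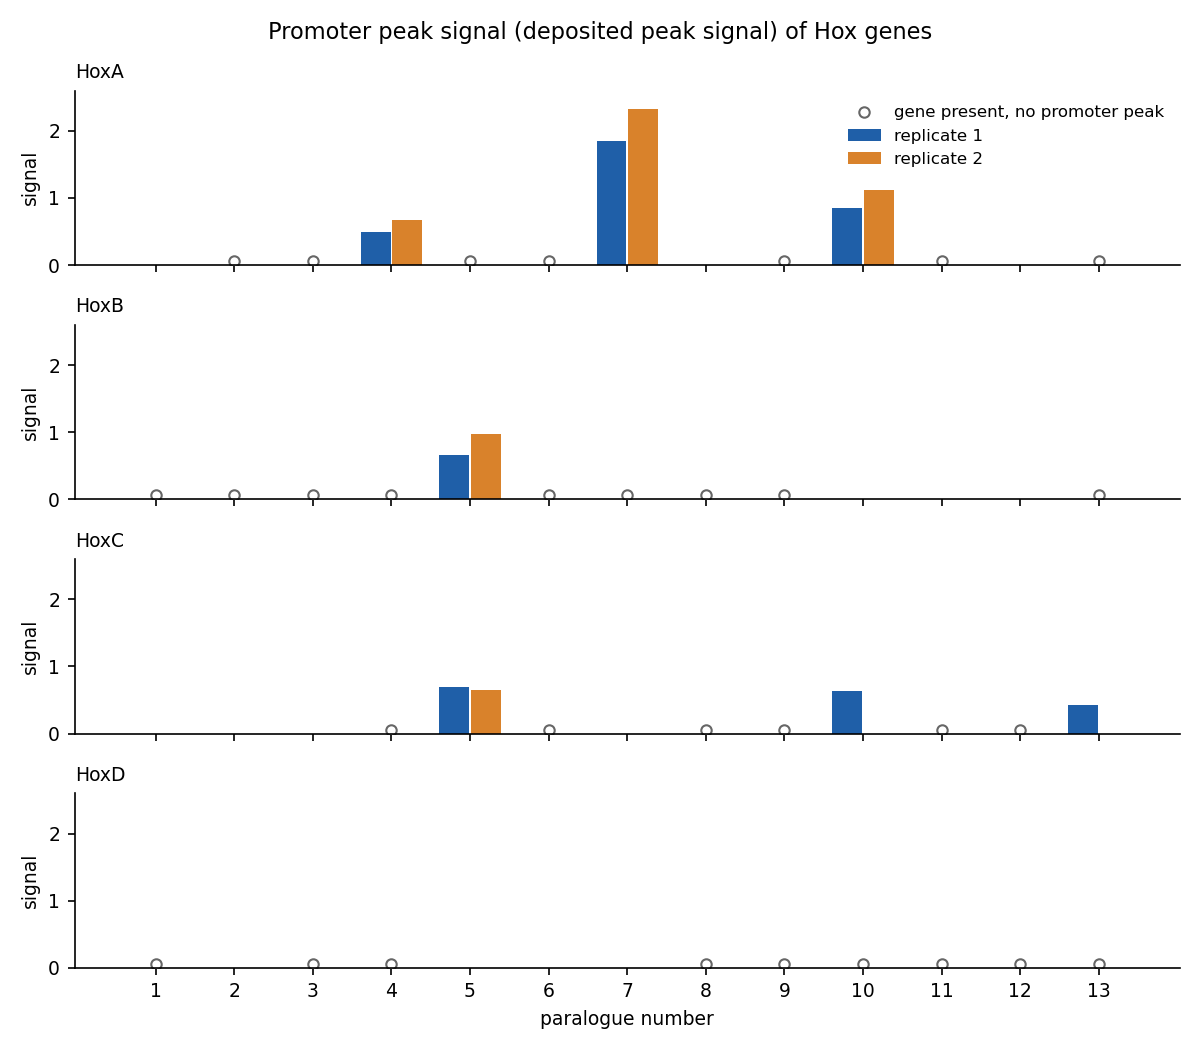
Deposited peak signal at the promoter (vertical axis) against paralogue number (horizontal axis) for each cluster, with a bar for each replicate and an open circle for a plotted gene with no promoter peak. HoxD holds no bar, and the bar of Hoxa7, at 1.85 and 2.33, is the tallest.

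Peak signal is a value deposited by the authors with no stated scaling, so it is used to rank peaks within a library. Hoxa7, a central gene of the trunk, had a promoter signal of 1.85 in replicate 1 and 2.33 in replicate 2. Hoxa10, a posterior gene active in limb and reproductive tract, had 0.844 and 1.12. Hoxb5, a central gene used in the hindbrain and trunk, had 0.661 and 0.97.

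Hoxa4, an anterior gene, had 0.495 in replicate 1 and 0.665 in replicate 2. Hoxc5, a central gene, had 0.688 and 0.654, at an inner transcript start rather than the annotated gene start. Hoxc10 and Hoxc13, posterior genes, had 0.641 and 0.427 in replicate 1 and no peak in replicate 2. In replicate 2 no base of either promoter window was listed in the authors' table of the local cut rate. The 7 and 5 open Hox promoters had a median signal of 0.661 and 0.97, beside 3.13 and 3.73 over all open protein-coding promoters.

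The table of the local cut rate lists bases whose false discovery rate is at most 0.05, and gives a lower bar than a peak. At least 1 listed base fell in the promoter window of 8 members in replicate 1 and 5 in replicate 2, beside 67.5% and 64.7% of all genes. The additional member in replicate 1 was Hoxc12, with 4 listed bases and a lowest rate of 0.0448. The remaining 31 and 34 members had none.

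The Hox promoters were mostly rich in CpG. The ratio of observed to expected CpG in the 1 kb around the gene start had a median of 0.678 over the members and 0.558 over all protein-coding genes. Of 25 members with a ratio of at least 0.6, 4 were open in replicate 1 and 3 in replicate 2. Among all 10072 genes with such a ratio, 96.6% and 95.1% were open. Of the 14 members with a lower ratio, 3 and 2 were open, beside 40.8% and 36.9% of all such genes.

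The distance from the annotated gene start to the nearest peak had a median of 4470 bp in replicate 1 and 5160 bp in replicate 2 over the members. Over all protein-coding genes it was 30 bp and 67 bp. Hoxa7 was the only member with a peak on its gene start in both replicates. Hoxd1, the gene at the anterior end of its cluster, lay 26581 bp and 46960 bp from a peak. The distance exceeded 10 kb for 8 members in replicate 1 and 13 in replicate 2. The difference between replicates was widest in HoxC, where Hoxc13 lay 183 bp from a peak in replicate 1 and 66418 bp in replicate 2.

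**Figure D2:**
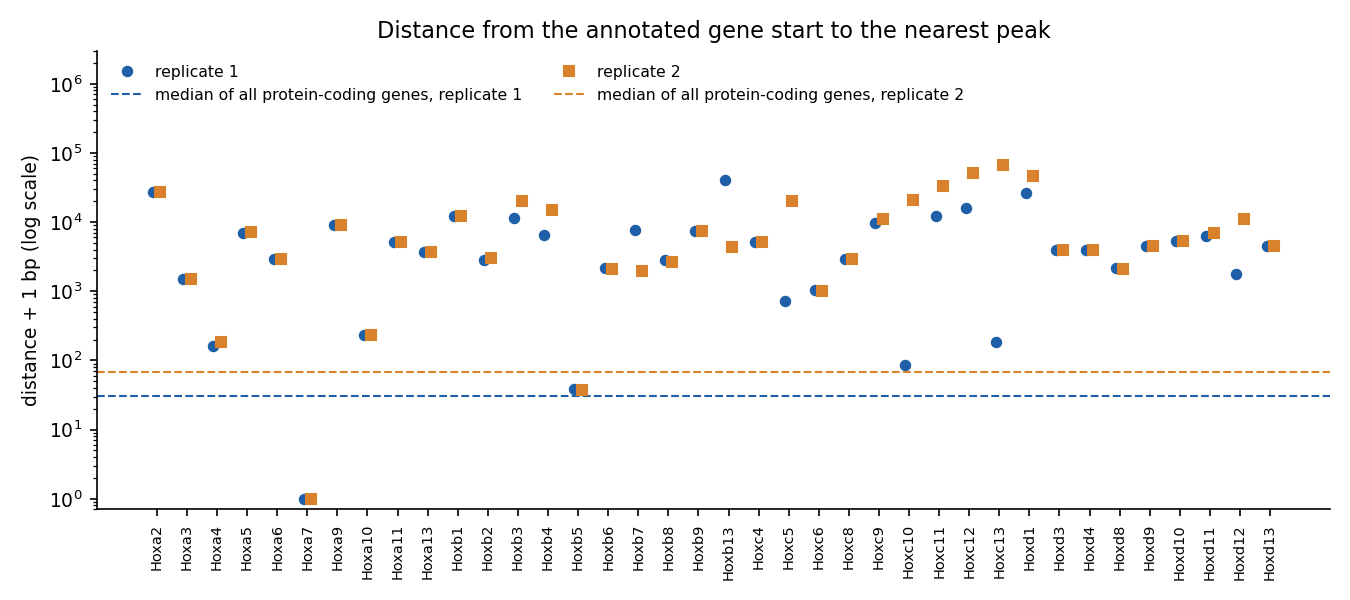
Distance from gene start to nearest peak plus 1 bp (log vertical axis) for the members plotted, in cluster and paralogue order, with a circle for replicate 1, a square for replicate 2 and dashed lines at the medians of all protein-coding genes. Hoxa7 sits at the foot of the axis and most members sit above 1000 bp.

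The clusters were not empty of peaks. The span of the Hox genes plus 50 kb on each side held 36 peaks in replicate 1 and 27 in replicate 2. Per 100 kb this was 4.04 and 3.03 peaks, beside 3.97 and 3.1 over the autosomes and X. By region it was 4.38 and 3.9 in HoxA, 4.75 and 4.02 in HoxB, 3.24 and 1.39 in HoxC, and 3.56 and 2.54 in HoxD. Merged across replicates the region peaks formed 39 sites of 61 to 298 bp, 24 seen in both replicates, 12 in replicate 1 only and 3 in replicate 2 only. Of these, 26 lay within the span of the Hox genes and 13 in the flanks. By the position of their centre, 7 sites were within 1 kb of a coding start, 3 within 1 kb of a noncoding start, 3 in exons, 7 in introns and 19 between genes.

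The base-by-base table gave shares below the genome for the same regions, although their number of peaks per 100 kb was near that of the genome. At a false discovery rate of at most 0.05, 0.946% and 0.672% of region bases were listed, beside 1.3% and 1.06% of the genome. In the spans of the genes alone the shares were 1.06% and 0.888%. At a rate of at most 0.001 the shares were 0.399% and 0.328% in the regions and 0.428% and 0.421% in the spans, beside 0.78% and 0.62%. Among the spans, HoxA had the highest share of listed bases at 0.05 (1.42% and 1.25%) and HoxC the lowest (0.735% and 0.52%). The HoxA span was thus above the genome at 0.05 in both replicates. At 0.001 it was below the genome, with 0.634% and 0.532%.

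Of the 36 region peaks in replicate 1, 66.7% overlapped a peak of replicate 2, beside 64.8% of all peaks. Of the 27 in replicate 2, 88.9% overlapped a peak of replicate 1, beside 82.9%. At the 24 shared sites the log2 signal of replicate 1 minus replicate 2 had a median of -0.42 (SD 0.19), beside -0.25 (SD 0.32) over 61026 peaks shared 1 to 1.

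**Figure D3:**
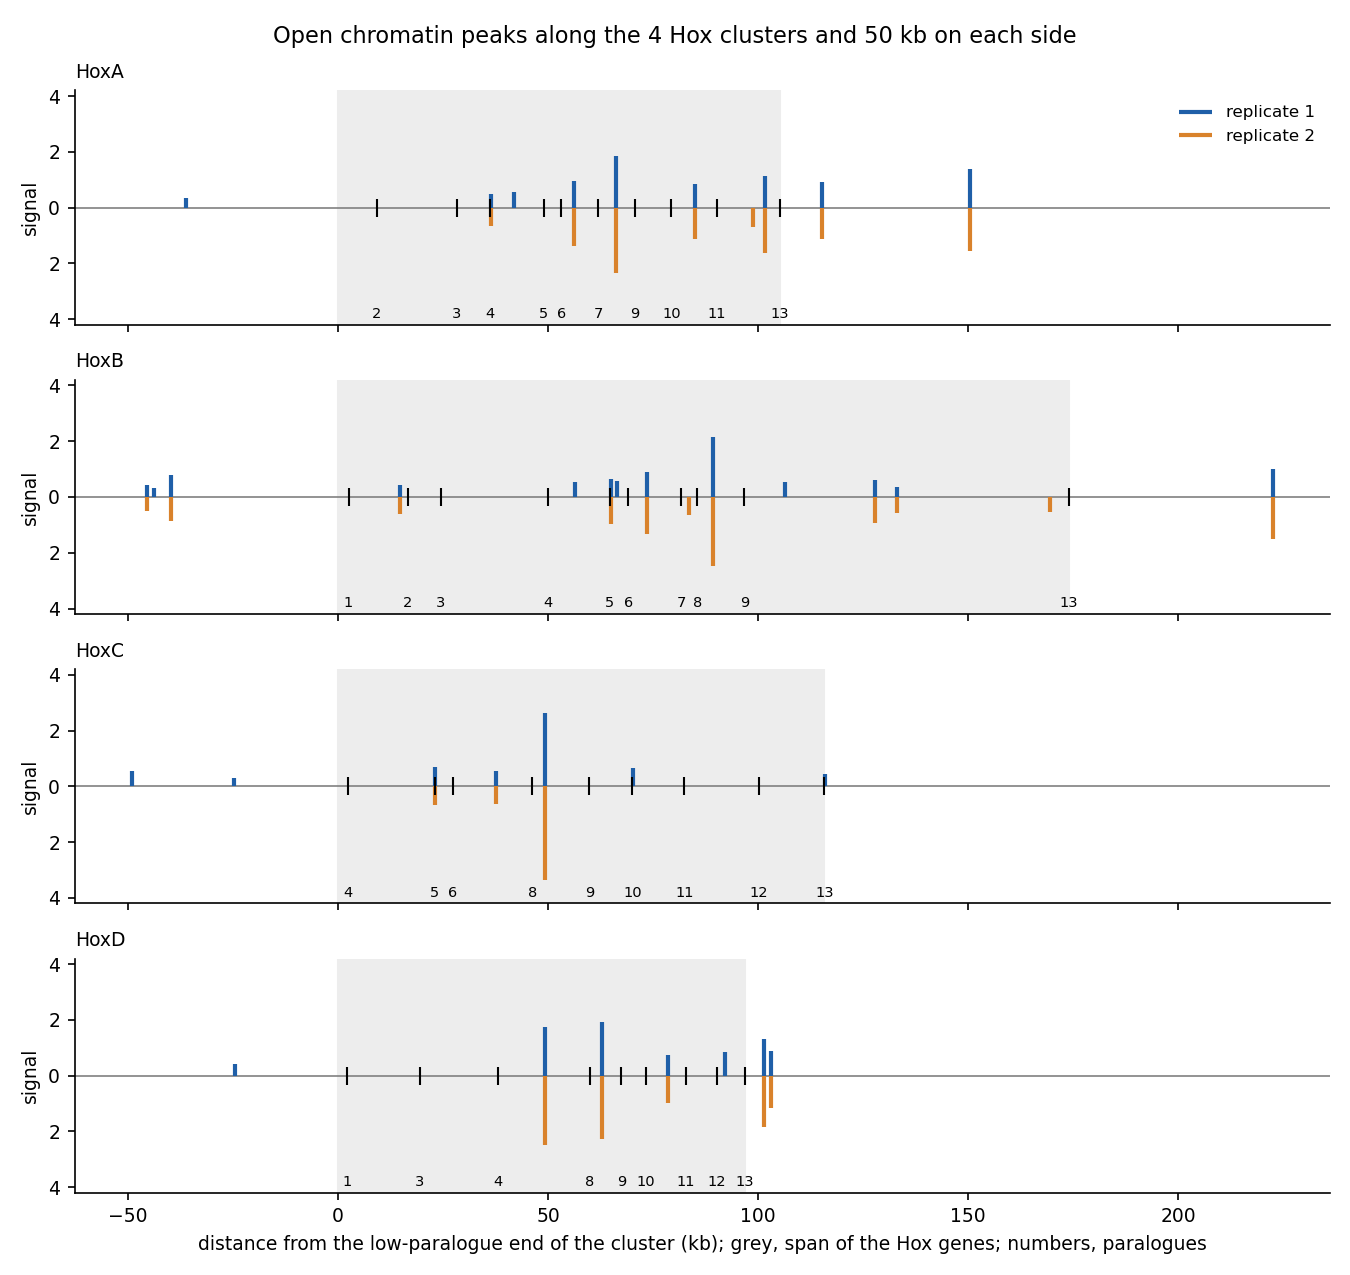
Peak signal (vertical axis, replicate 1 upwards and replicate 2 downwards) against distance in kb from the low-paralogue end of each cluster, with black ticks and numbers at the last protein-coding start of each gene plotted. In HoxB and HoxC the peak between paralogues 9 and 8 stands above the others of its cluster, and in HoxD it stands beside a peak of similar height.

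HoxA lies on chromosome 6 on the reverse strand and held 7 sites within its span. The strongest was the Hoxa7 start, followed by a site between Hoxa11 and Hoxa13 with 1.15 and 1.61, near the start of the noncoding gene 9530018H14Rik. A site between Hoxa6 and Hoxa7 had 0.943 and 1.36. The Hoxa10 and Hoxa4 promoter sites are given above. A site between Hoxa4 and Hoxa5 had 0.552 in replicate 1 only, and another between Hoxa11 and Hoxa13 had 0.71 in replicate 2 only. No site fell between Hoxa2 and Hoxa4. In the flank beyond Hoxa13, a site 45191 bp upstream of its start was among the 3 strongest of the region, with 1.38 and 1.55.

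HoxB lies at chr11:96194316-96368256 on the forward strand and held 11 sites within its span. The strongest, with 2.16 and 2.47, lay 2924 bp upstream of the start of Hoxb8. The next within the span lay between Hoxb7 and Hoxb6, with 0.88 and 1.33. In the long interval between Hoxb13 and Hoxb9 there were 4 sites. Of these, 1 had 0.62 and 0.936 and another 0.354 and 0.575, while 1 near the noncoding gene Gm53 had 0.552 in replicate 1 only and 1 had 0.553 in replicate 2 only.

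The other HoxB sites were the Hoxb5 promoter, an exon of Hoxb8 with 0.632 in replicate 2 only, and an exon of Hoxb2 with 0.417 and 0.609. A site between Hoxb6 and Hoxb5 had 0.589, and a site between Hoxb5 and Hoxb4 had 0.526, each in replicate 1 only. No site fell between Hoxb4 and Hoxb2. In the flank, a site 48515 bp upstream of Hoxb13, in an intron of Ttll6, had 1.02 and 1.5 and was among the 3 strongest of the region.

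HoxC lies at chr15:102921103-103036852 on the forward strand and held 4 sites within its span. Its strongest, with 2.62 and 3.34, lay 2996 bp upstream of the start of Hoxc8 and was the strongest site of all 4 clusters. The other 3 were at the Hoxc5 promoter, at the Hoxc10 promoter in replicate 1 only, and between Hoxc8 and Hoxc6 with 0.563 and 0.643. The Hoxc13 promoter site was centred just outside the span and was counted as flank. All 3 flank sites of HoxC were seen in replicate 1 only.

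HoxD lies at chr2:74668310-74765142 on the forward strand and held 4 sites within its span. A site 2214 bp upstream of Hoxd8 had 1.94 and 2.27. A site at the start of the noncoding gene Hoxd3os1, between Hoxd8 and the last coding start of Hoxd4, had 1.73 and 2.5. A site in an exon of Hoxd11 had 0.734 and 0.992, and a site between Hoxd13 and Hoxd12 had 0.865 in replicate 1 only. In the flank, a site 4559 bp upstream of Hoxd13 had 1.32 and 1.85 and was the third strongest of the region.

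Between neighbouring Hox starts there are 35 intervals, and 20 held at least 1 site. The Hoxa7 peak and the peaks between paralogues 9 and 8 can be set beside the second strongest site in each span. In HoxA these were 1.85 and 2.33 beside 1.15 and 1.61, and in HoxB 2.16 and 2.47 beside 0.88 and 1.33. In HoxC they were 2.62 and 3.34 beside 0.688 and 0.654. In HoxD they were 1.94 and 2.27 beside 1.73 and 2.5, so that the order of the pair differed between replicates. By the mean of the replicates the Hoxd3os1 site (2.12) stood above the site between Hoxd9 and Hoxd8 (2.1). Only HoxB and HoxC thus had their highest peak between paralogues 9 and 8 in both replicates. The position was noticed after the values were seen and was not tested. None of the 4 was extreme among all peaks: the share of all peaks at or below their signal ran from 85.3% to 90.2% in replicate 1 and from 81.5% to 88.3% in replicate 2.

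The widest footprint in each of these 4 peaks measured 26 and 24 bp in HoxA, 30 and 25 bp in HoxB, 33 and 31 bp in HoxC, and 35 and 35 bp in HoxD. The widest footprint of a peak had a median of 19 and 18.5 bp over the region peaks that held any, beside 15 and 14 bp over all such peaks. Counted singly, footprints had a median width of 10 and 9 bp in the regions, beside 10 bp over all footprints in both replicates. The 4 regions together held 75 and 54 footprints, of which 24% and 20.4% were at least 20 bp wide, beside 16.1% and 16.4% of all footprints. Per 100 kb this was 8.41 and 6.06 footprints, fewer than the 11.1 and 7.1 over the autosomes and X. The region peaks held 1.94 and 1.93 footprints per peak, also fewer than the 2.45 and 2.05 of peaks on the autosomes and X. At least 1 footprint lay in 91.7% and 88.9% of the region peaks, beside 82.3% and 72% of peaks on the autosomes and X.

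Exact matches to 7 short motifs were sought on both strands of the region peaks. The CTCF core AGGNGGCNC, where N is any base, was in 7 of 36 peaks in replicate 1 (19.4%) and 4 of 27 in replicate 2 (14.8%), beside 9.51% and 10.2% of all peaks. At 4 sites a match lay under a footprint in both replicates: between Hoxa11 and Hoxa13, at the Hoxb5 promoter, between Hoxc9 and Hoxc8, and at Hoxd3os1. At a further 2, the Hoxc10 promoter and Gm53, it did so in replicate 1 only. Of all core matches in peaks of the series, 47.4% and 42.5% lay under a footprint. The cAMP response element TGACGTCA was in 1 site, the Hoxc10 promoter, beside 0.885% and 0.986% of all peaks. The PBX-HOX motif TGATNNAT was in 2.78% and 3.7% of region peaks and under no footprint, beside 4.16% and 4.09% of all peaks, where 7.31% and 6.13% of matches were under one. The NRF1 core GCGCATGCG, EGR GCGTGGGCG, REST TTCAGCACC and YY1 AAGATGGC had no match, beside 0.754%, 0.477%, 0.415% and 1.87% of all peaks in replicate 1.

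The core was absent from 3 of these 4 peaks, those of HoxA, HoxB and HoxD, so a CTCF consensus of 12 letters was searched as well, on both strands. It was chosen after their footprinted sequences had been seen, and was run at 3 limits on mismatches, all given here. With 0 mismatches it was in 0 of 36 and 0 of 27 region peaks (0%), beside 5.17% and 5.91% of all peaks. Over so few region peaks such shares would come to very few peaks, so the absence is no result about them. With at most 1 it was in 8 (22.2%) and 6 (22.2%), beside 16.6% and 18%. With at most 2 it was in 24 (66.7%) and 20 (74.1%), beside 40.3% and 41.6%. The region share stood furthest above that of all peaks at the loosest limit, and no limit is preferred.

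**Figure D4:**
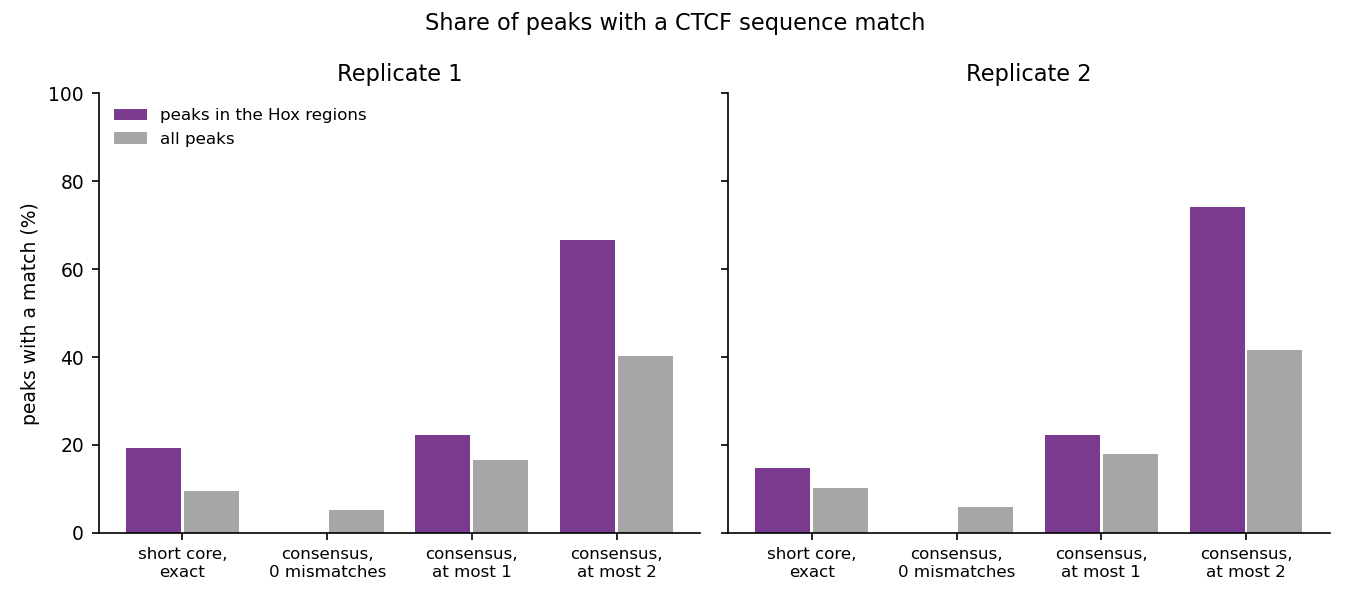
Percent of peaks holding a CTCF match, for peaks in the Hox regions and for all peaks, under the short core and the 3 mismatch limits of the longer consensus, with a panel for each replicate. The Hox bar is at 0% with 0 mismatches and at 66.7% and 74.1% with at most 2.

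A match in each of the 4 peaks is shown with its flanks, read along its strand. Capitals mark the best consensus match, with 1 mismatch, in HoxA, HoxB and HoxD, and the exact core in HoxC. The best consensus match in the HoxC peak had 2 mismatches, lay elsewhere in the peak at chr15:102987547-102987558 on the reverse strand, and was under no footprint in either replicate.
HoxA, reverse strand, chr6:52221809-52221820: agaaaattCCAGGAGATGGCagtgtggc
HoxB, forward strand, chr11:96278948-96278959: cacagtggCCGCTAGATGGCatccttgc
HoxC, forward strand, chr15:102987598-102987606: agtgaacgcgAGGTGGCGCtgttgctcaa
HoxD, forward strand, chr2:74702395-74702406: gcatttggCCACTAGAGAGCgctgttgc
In both replicates a footprint covered the consensus whole in the HoxA, HoxB and HoxD peaks, and at least 0.5 of the core in the HoxC peak. The HoxC and HoxD peaks share a run of 12 bases, GCGCTGTTGCTC, which was present in 8 of 104654 peaks in replicate 1 and 8 of 81654 in replicate 2. Both counts include the HoxC and HoxD peaks themselves. In both peaks the run overlaps the end of the match shown above. This run was also picked after the sequences were seen, as the longest shared by any pair of the 4 peaks on either strand. For the other pairs the longest run had 7 to 11 bases, with 11 shared by the HoxA and HoxB peaks. No other run was counted over all peaks, so its rarity has no comparison. A match describes letters only, and binding of CTCF was not measured.

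Other genes starting in the 4 regions numbered 60, of which 3 had a promoter peak in replicate 1 and 2 in replicate 2. All 3 were among the 56 that are not protein-coding, and over the annotation 13.8% and 11.9% of such genes were open. The 3 were Hoxd3os1 with 1.73 and 2.5, 9530018H14Rik with 1.15 and 1.61, and Gm53 with 0.552 in replicate 1 only. All 7 microRNA genes there lacked a promoter peak, among them Mir10a and Mir10b, and Mir196a-1, Mir196a-2 and Mir196b, known to target Hox transcripts. Over the annotation, 13.2% and 11.2% of microRNA genes had a promoter peak, so the count in the regions is no result about them. The distance to the nearest peak was 5358 bp and 13865 bp for Mir10a.

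Genes that act with or on Hox genes were counted by the same promoter rule. It called 66.6% and 63.8% of all protein-coding genes open, and 96.6% and 95.1% of those with a CpG ratio of at least 0.6. The CpG ratio of the listed genes was not compared, so a list open in full is no result about its genes. All 9 TALE cofactors, which bind DNA with Hox proteins, were open in both replicates, the highest being Pknox1 (8.97 and 10.3) and the lowest Meis3 (1.66 and 1.53). All 15 Polycomb genes were open, with Cbx8 (10.2 and 10.5) and Jarid2 (9.48 and 10.7) highest and Bmi1 (2.04 and 2.88) lowest by the mean of the replicates. All 5 trithorax genes, which maintain active Hox genes, were open, with Kmt2a (7.77 and 11) and Kmt2b (6.56 and 7.39) highest and Ash1l (3.39 and 3.81) lowest by that mean. In replicate 2 alone, Wdr5 (8.01) stood above Kmt2b, and Cbx2 (2.73), Phc1 (2.74) and Cbx7 (2.75) below Bmi1.

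Of 9 regulators that activate Hox genes in the embryo, 7 and 6 were open, beside 66.6% and 63.8% of all protein-coding genes. Rarg, a retinoic acid receptor gene, had 2.98 and 4.01, and Cdx1 and Cdx2 had no peak. Of 3 retinoic acid enzymes, 2 were open in each replicate: Aldh1a2 (0.688 and 0.767), which makes retinoic acid, and Cyp26b1 (0.25 and 0.71), which breaks it down, while Cyp26a1 had no peak. Of the 5 ParaHox and Evx genes, relatives of Hox genes, 2 and 1 were open. Gsx1 had 0.974 and 1.3 and Gsx2 had 0.536 in replicate 1 only, and Evx1 and Evx2, next to HoxA and HoxD, had none.

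Markers were examined for the tissue itself, beside the 66.6% and 63.8% of all protein-coding genes that were open. Of 8 forebrain factors, 8 and 7 were open, for example Lhx2 with 2.94 and 3.54. Of 8 hindbrain and spinal markers, 4 and 2 were open, the highest being Tlx3 with 0.615 and 1.26. None of 4 blood cell markers was open, and 4 and 2 of 5 endothelial and mural markers were. The part of these other cell types in the Hox peaks was not tested.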

How the data were processed

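DNase-seq was deposited for 2 libraries of 1 group, labelled biological replicates 1 and 2. Per the deposited text files, the authors called peaks, footprints and local cut rates per library in mm10 coordinates. The callers and thresholds used were not given in the sources used here. Signal values of peaks were taken as deposited, with no stated scaling, so depth is unknown. Listed bases were counted from the false discovery rates (adjusted p-values) deposited by the authors. The score deposited with each footprint was constant and was not used. Lists had 104654 and 81654 peaks.

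Peaks were set against GENCODE M21 and the GRCm38 sequence with Python 3.11.15, numpy 2.4.6 and pandas 2.3.3. Overlap needed 1 bp, and a motif counted as footprinted when footprints covered 0.5 or more of it. All protein-coding genes, the TALE, Polycomb, trithorax and marker lists, and 7 motifs were used. Every member is in the counts, and some genes are not reported here singly. The 3 strongest sites of each region and every site within a span are named, as are the highest 2 and lowest 1 of each gene list where reported. Members and lists were chosen with earlier results of these data known. The 12-letter CTCF consensus, its 3 mismatch limits and the shared run were chosen after the sequences were seen. With 1 group, no test between samples was made, and the replicates may share a source. Code was tested on simulated data.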

Additional observations from a re-analysis of the deposited data

How the results depend on the processing

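Of the alternatives run, 48 stayed close to the main value and 21 did not. A wider flank or window can only raise a count, and no flank, a narrower window or the strongest 50% of peaks can only lower it. Other causes were not tested. Close meant within 1.5 times for a count of promoters, peaks or footprints, which is wider than the spread between replicates in several cases. It meant within the 95% binomial interval for overlap shares, and within 1 SD for the motif share. With 2 replicates, leaving 1 out always falls within that SD, so this setting could not move the motif share. The 5 Hox promoters open in both replicates became 3 with a 100 bp window, 8 with a 2000 bp window, 1 with the shorter peak list and 3 with the strongest 50% of peaks. No share of all protein-coding genes is given under these settings, so these counts have no comparison. Mean peak numbers, main values 8.5, 12, 5 and 6 in the HoxA, HoxB, HoxC and HoxD regions, became 5.5, 7 and 1 in HoxA, HoxB and HoxC with the shorter list. They became 5.5 in HoxB and 2 in HoxC with the strongest 50% of peaks, 8 in HoxC and 9.5 in HoxD with a 100 kb flank, and 3.5 in HoxD with no flank. Mean footprint numbers with a 100 kb flank became 37 in HoxB, 17.5 in HoxC and 27.5 in HoxD, beside 24, 7 and 14. The share of region peaks with a CTCF match, 17.1% by the core as a mean of replicates, became 0%, 22.2% and 70.4% with the consensus at 0, 1 and 2 mismatches at most, added after the data were seen.

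Leaving out each replicate in turn gave 5 to 7 open Hox promoters. Peaks ranged from 8 to 9 in HoxA, 11 to 13 in HoxB, 3 to 7 in HoxC and 5 to 7 in HoxD. Footprints ranged from 16 to 23, 23 to 25, 4 to 10 and 9 to 19. Without replicate 1, HoxC held 3 peaks and 4 footprints and HoxD 9 footprints. No paired analysis was possible because the libraries form a single group. Depth is unknown, so a closed promoter means no peak at these thresholds.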
